A study of Mus musculus with 4 samples.

Results

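The transcripts described here are those of 10 cytokine genes of neutrophils and other myeloid cells, out of 28585 genes listed. They are the interleukin-1 ligands *Il1a* and *Il1b*, the antagonist *Il1rn*, the decoy receptor *Il1r2*, the tumor necrosis factor gene *Tnf*, the CXC chemokines *Cxcl2* and *Cxcl3*, and the CC chemokines *Ccl3*, *Ccl4* and *Ccl6*. These genes were chosen by name, with their levels in the same libraries already known, so the comparison of genotypes below is a description of them and carries no test. All 10 were listed in every library, and 9 had a mean of at least 0.1 FPKM. FPKM counts sequenced fragments relative to the length of a transcript and the size of a library, so levels of different genes can be set side by side.

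The RNA came from polymorphonuclear myeloid-derived suppressor cells (PMN-MDSCs), neutrophil-like cells that restrain T cells. They were taken from the spleens of mouse pups on postnatal day 7, with 300000 cells per extraction. Of the 4 bulk RNA sequencing libraries, 2 were from *Dhps* cko pups (*Dhps* fl/fl *Lysm* cre) and 2 from *Dhps* flox pups (*Dhps* fl/fl). Both genotypes therefore carry the floxed *Dhps* alleles, and the comparison asks what differs when the Cre recombinase is also present. *Dhps* encodes deoxyhypusine synthase, which uses spermidine to form hypusine on the translation factor eIF5A. *Lysm* cre is a Cre insertion at the lysozyme gene *Lyz2* that is active in neutrophils, monocytes and macrophages, and it can leave part of the cells of a population with an intact gene. The study's methods give a C57BL/6J background, animals of both sexes and a sorting gate of CD11b+ Ly6C lo/- Ly6G+. Whether a library came from 1 pup or from a pool is not stated. *Xist*, a transcript of female cells, and Y-linked transcripts were both present in every library, so each library held RNA of both sexes. The number of pups per library is not known, and the spread between libraries may be partly technical.

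IL-1α and IL-1β are alarm cytokines that act through one receptor and the adaptor MyD88 to switch on NF-κB. Their action is checked at several points, by a soluble antagonist that occupies the receptor, by a decoy receptor that binds the ligand without signaling, and by inflammasomes that control the cutting of pro-IL-1β. CXCL2 and CXCL3 belong, with CXCL1 and CXCL5, to the chemokines that bind CXCR2 and draw neutrophils out of the blood, while CCL3 and CCL4 draw monocytes and lymphocytes. Many of these transcripts are made within minutes of stimulation and decay quickly through AU-rich elements in their 3′ untranslated regions.

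The libraries were close in their FPKM sums, from 304281 to 319286, and had 10611 to 10729 genes at 1 FPKM or more. FPKM are already scaled by library size, so these sums do not measure depth. The spacing of low FPKM values put the depth at about 29000000 to 33000000 mapped fragments. This is a rough estimate, the depth that fitted the spacing best, and the fragment numbers below are approximate. The identity of the cells was checked on 10 neutrophil markers, which were detected in every library and summed to 48757 and 51392 FPKM in *Dhps* cko and 49408 and 45780 FPKM in *Dhps* flox. *S100a9* alone was at 24504 to 28033 FPKM. Fold changes were above 0 for 8 markers and below 0 for 2. *Ly6g*, named with its values known, was at 222 and 242 FPKM in *Dhps* cko and 195 and 185 FPKM in *Dhps* flox (log2 fold change 0.29, unadjusted p = 0.00801, adjusted p = 0.529 from limma). *Dhps* was at 2.38 and 2.59 FPKM in *Dhps* cko and at 3.57 and 3.11 FPKM in *Dhps* flox, a log2 fold change of -0.41 (standard error 0.13, adjusted p = 0.629 from limma). Over the 17948 genes tested, 1 gene (0.00557%) had an adjusted p under 0.05, and it is not a cytokine gene. At an unadjusted p under 0.05, 410 genes (2.28%) were lower and 847 (4.72%) higher in *Dhps* cko. The number lower was 655 without *Dhps* flox replicate 2, and the number higher was 404 without *Dhps* cko replicate 1 and 442 without *Dhps* cko replicate 2. The higher genes made up 67.4% of these calls, 56.9% after rescaling to TPM, which gives each library the same sum, and 50.8% without *Dhps* cko replicate 1, where 391 were lower.

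Markers of other cells also differed between the libraries. The 10 monocyte and macrophage markers summed to 210 and 211 FPKM in *Dhps* cko and to 169 and 168 FPKM in *Dhps* flox, and each of the 10 had a fold change above 0, with 5 at an unadjusted p under 0.05 in limma. The 8 B cell markers summed to 64.9 and 67.7 FPKM against 41.5 and 50.8 FPKM, and the 8 T cell markers to 22.4 and 16.7 FPKM against 13.8 and 8.62 FPKM. All 8 B cell and all 8 T cell markers had a fold change above 0, with 5 and 2 at an unadjusted p under 0.05 in limma. Of all genes tested, 4.72% were higher at that p. The median log2 fold changes of the monocyte and macrophage, B cell and T cell lists were 0.29, 0.58 and 0.67. None of these 26 markers was at 0 in a library, and the T cell marker with the lowest mean, *Cd3e*, named with its values known, was at 0.15 to 0.25 FPKM. Among sex-linked genes, the Y-linked *Ddx3y*, named with its values known, was at 2.14 and 2.47 FPKM in *Dhps* cko and 5.57 and 4.92 FPKM in *Dhps* flox, and *Xist* at 27.5 and 20.3 FPKM against 16.3 and 17.2 FPKM. All 4 Y-linked genes of the list were lower in both *Dhps* cko libraries, so the mix of sexes differed between the genotypes. The part of these differences in the cytokine levels was not tested. Monocytes and macrophages, which the sorting gate should largely remove, can make most of the cytokines described here, and in bulk RNA fewer cells of a type and less RNA per cell cannot be told apart.

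The 10 genes did not move as a block. Both *Dhps* cko libraries were below both *Dhps* flox libraries for 3 genes, *Cxcl2*, *Ccl3* and *Il1a*, and above both for 3 others, *Tnf*, *Il1r2* and *Il1rn*. The genotypes overlapped for the other 4 genes, *Il1b*, *Ccl4*, *Ccl6* and *Cxcl3*. Of all genes tested, 16.0% were lower and 20.0% higher in this sense. The log2 fold change of *Dhps* cko against *Dhps* flox was below 0 for 6 genes and above 0 for 4, with a median of -0.27, beside 0.01 for all genes tested. Without *Cxcl3* and *Ccl4*, which rest on a few fragments, it was below 0 for 4 and above 0 for 4, with a median of 0.01. It is given on log2(FPKM + 0.1), a scale that understates the change of low genes. The median was -0.08 without *Dhps* cko replicate 1 and -0.14 without *Dhps* flox replicate 1, and the number of fully lower genes was 6 without *Dhps* cko replicate 2 and 5 without *Dhps* flox replicate 2 or after rescaling to TPM.

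**Figure D1:**
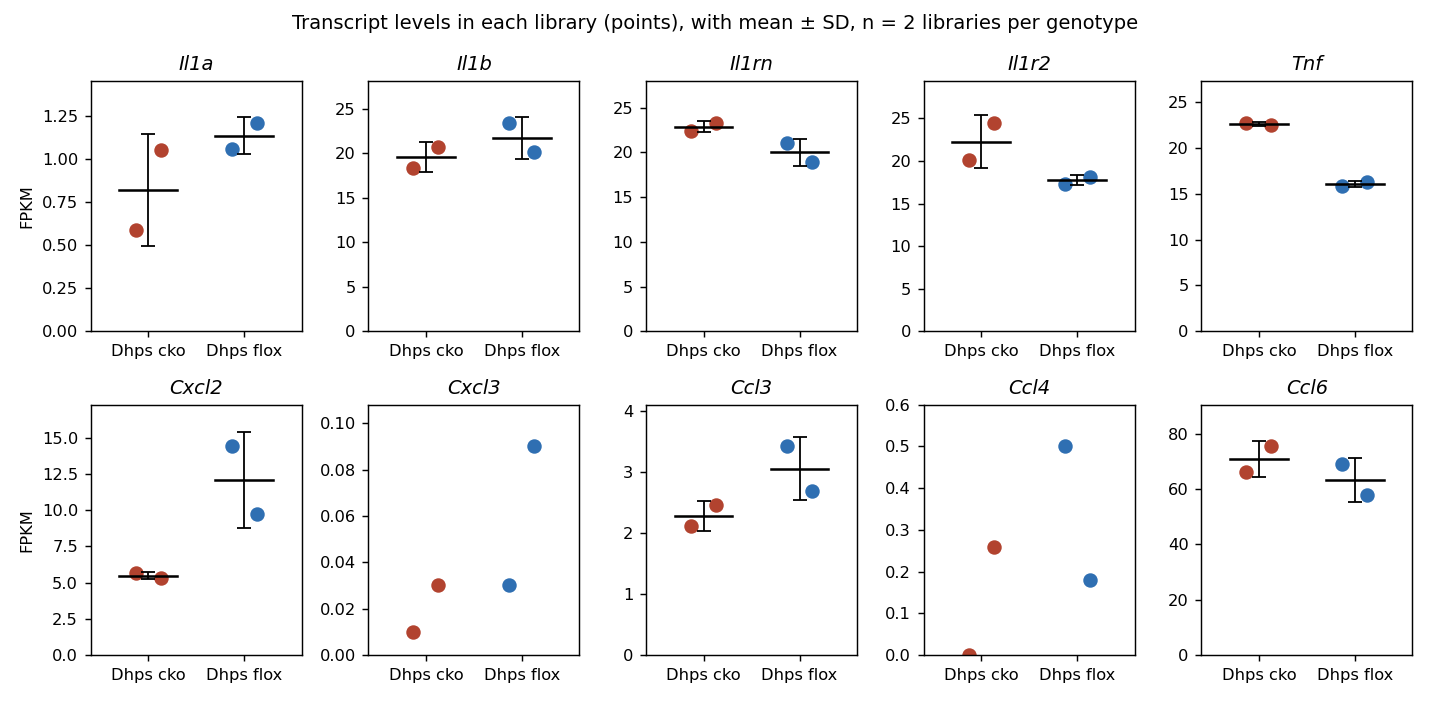
Level in FPKM (vertical axes, each starting at 0) of the 10 cytokine genes in the 2 *Dhps* cko (red) and 2 *Dhps* flox (blue) libraries, with points for libraries, bars for means and whiskers for the SD, except for *Cxcl3* and *Ccl4*, where only points are drawn. *Cxcl2* lies at 5.3 and 5.67 FPKM in *Dhps* cko and at 9.73 and 14.42 FPKM in *Dhps* flox, while *Tnf* lies above 22 FPKM in both *Dhps* cko libraries and below 17 FPKM in both *Dhps* flox libraries.

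The ligands of the IL-1 receptor were present at very different levels, and the abundant one, *Il1b*, overlapped between the genotypes. *Il1b* (ENSMUSG00000027398; chr2:129364570-129371139, minus strand, GRCm38) encodes the secreted ligand that becomes active when it is cut, for example by caspase-1. It was at 18.35 FPKM in the first and 20.73 FPKM in the second *Dhps* cko library, and at 23.43 FPKM in the first and 20.09 FPKM in the second *Dhps* flox library. The second *Dhps* cko library was thus above the second *Dhps* flox library. Means were 19.5 ± 1.68 FPKM (SD, n = 2) and 21.8 ± 2.36 FPKM (SD, n = 2), a log2 fold change of -0.15 (standard error 0.11). It was -0.04 without *Dhps* flox replicate 1 and -0.07 without *Dhps* cko replicate 1, but -0.24 without *Dhps* cko replicate 2 and -0.26 without *Dhps* flox replicate 2, and the genotypes did not overlap with either of the last 2 left out or after rescaling to TPM. *Il1b* ranked 1932 of 28585 genes by mean level.

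*Il1a* (ENSMUSG00000027399; chr2:129299610-129309972, minus strand) lies next to it and encodes the ligand that is active without cutting and acts when cells are damaged. Its levels were 0.59 and 1.05 FPKM in *Dhps* cko and 1.06 and 1.21 FPKM in *Dhps* flox. The first *Dhps* cko library stood apart, and the second was within 0.01 FPKM of the lower *Dhps* flox library. The log2 fold change was -0.47 (standard error 0.30), with -0.10 without *Dhps* cko replicate 1 and -0.84 without *Dhps* cko replicate 2. At the estimated depths these values correspond to about 38.1 to 69.3 fragments per library. Of the exon bases of *Il1a*, 11.2% overlap the gene model *Gm14023* on the opposite strand, and without strand the reads of the 2 cannot be told apart. The ratio of *Il1a* to *Il1b* was 0.032 and 0.051 in *Dhps* cko and 0.045 and 0.06 in *Dhps* flox, and it overlapped between the genotypes.

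Both brakes on IL-1 were higher in *Dhps* cko than in *Dhps* flox. *Il1rn* (ENSMUSG00000026981; chr2:24336853-24351494, plus strand) encodes the receptor antagonist IL-1Ra. It was at 22.44 and 23.32 FPKM in *Dhps* cko and at 21.08 and 18.93 FPKM in *Dhps* flox. The 2 genotypes did not overlap, with 1.36 FPKM between the nearest libraries. On the log2 scale the genotypes differed by 0.19 (standard error 0.08), with a range from 0.12 without *Dhps* flox replicate 2 to 0.27 without *Dhps* flox replicate 1 over the alternatives. *Il1r2* (ENSMUSG00000026073; chr1:40074079-40125231, plus strand) encodes the decoy receptor that neutrophils carry and shed. It was at 20.08 and 24.49 FPKM in *Dhps* cko and at 17.30 and 18.16 FPKM in *Dhps* flox, so the groups did not overlap here either. Its log2 fold change was 0.32 (standard error 0.11), and 0.18 without *Dhps* cko replicate 2.

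The balance between brakes and ligand was read from ratios within a library, which do not depend on how a library was scaled. The ratio of *Il1rn* to *Il1b* was 1.22 and 1.125 in *Dhps* cko and 0.90 and 0.942 in *Dhps* flox. *Il1rn* was therefore above *Il1b* in both *Dhps* cko libraries and below it in both *Dhps* flox libraries. The ratio of *Il1r2* to *Il1b* was 1.09 and 1.18 in *Dhps* cko and 0.738 and 0.904 in *Dhps* flox, without overlap. On the log2 scale the 2 ratios differed between genotypes by 0.35 and 0.48.

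**Figure D2:**
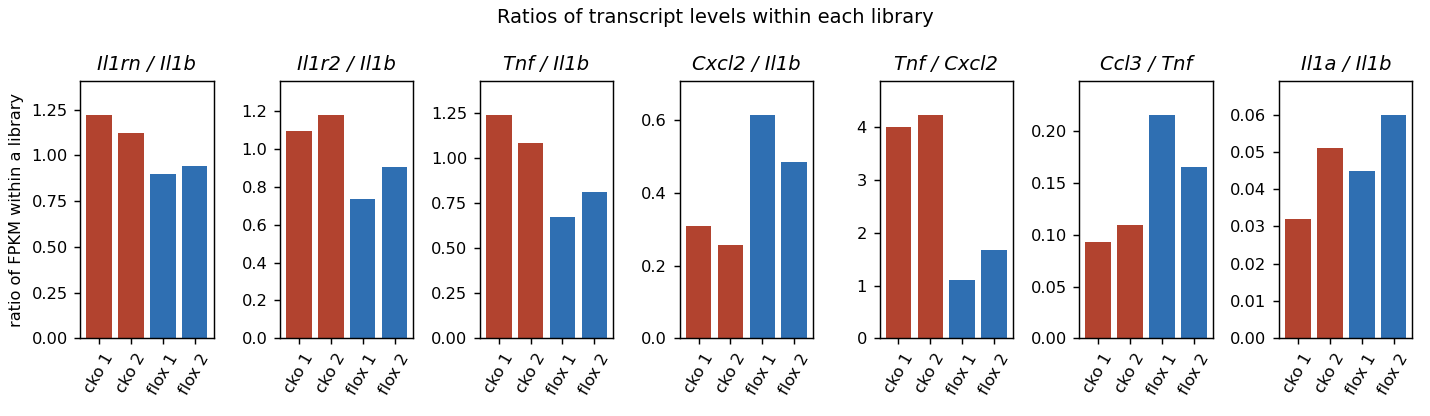
Ratio of FPKM between pairs of cytokine genes within each library (bars from 0), with *Dhps* cko in red and *Dhps* flox in blue. For 6 of the 7 ratios both *Dhps* cko libraries lie on one side of both *Dhps* flox libraries, while *Il1a* over *Il1b* overlaps, with the widest gap for *Tnf* over *Cxcl2*, 4.01 and 4.24 against 1.10 and 1.68. The pairs join genes chosen with their levels known, so this count describes them and carries no test.

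None of the other IL-1 pathway genes tested passed a threshold. Beside the 10 genes, the lists of IL-1 family ligands, receptors, receptor signaling and processing held 0 genes with an adjusted p under 0.05 in limma, and also 0 at an unadjusted p under 0.05, among 2, 8, 13 and 9 genes tested. *Il1f9*, which encodes IL-36γ, was the most abundant IL-1 family ligand of the list. It was at 61.3 and 72.6 FPKM in *Dhps* cko and 58.7 and 54.0 FPKM in *Dhps* flox, higher without overlap, with a log2 fold change of 0.24 (standard error 0.10, adjusted p = 0.731). *Il18*, the inflammasome-dependent inducer of interferon-γ, had a log2 fold change of 0.20 (adjusted p = 0.785), and *Il18rap*, a chain of its receptor, was at 67.5 to 70.9 FPKM in all 4 libraries. *Myd88*, the adaptor of the receptors, was at 42.4 and 41.3 FPKM in *Dhps* cko and 36.0 and 39.9 FPKM in *Dhps* flox (log2 fold change 0.14, adjusted p = 0.773). Of the 13 signaling genes, 10 had a fold change below 0, with a list median of -0.04. *Tollip*, an inhibitor of the receptor complex, had the largest absolute log2 fold change of those averaging at least 1 FPKM, -0.16 (adjusted p = 0.71). Among 9 processing genes, *Nlrc4*, the sensor of an inflammasome, had a log2 fold change of -0.33 (adjusted p = 0.768) and *Gsdmd*, which forms the pore for release, one of 0.10 (adjusted p = 0.82).

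*Tnf* was the gene of the 10 with the clearest gap upward. *Tnf* (ENSMUSG00000024401; chr17:35199381-35202007, minus strand) encodes TNF-α, a trimeric cytokine that is cut from the membrane by ADAM17. It was at 22.75 and 22.47 FPKM in *Dhps* cko and at 15.82 and 16.33 FPKM in *Dhps* flox. Replicates lay within 0.51 FPKM of each other, while 6.14 FPKM separated the nearest libraries of the 2 genotypes. Means were 22.6 ± 0.198 FPKM (SD, n = 2) and 16.1 ± 0.361 FPKM (SD, n = 2), so the *Dhps* cko mean was 141% of the *Dhps* flox mean. The log2 fold change was 0.49 (standard error 0.06) and moved between 0.46 and 0.51 over the alternatives. Against *Il1b*, *Tnf* had a ratio of 1.24 and 1.08 in *Dhps* cko and 0.675 and 0.813 in *Dhps* flox.

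Around *Tnf*, the list of TNF production and response held 13 other genes tested, of which 0 had an adjusted p under 0.05 and 1 was higher at an unadjusted p under 0.05 (4.72% of all genes tested). That gene was *Ltb*, a neighbor of *Tnf* that encodes lymphotoxin β. It was at 30.8 and 29.4 FPKM in *Dhps* cko and 23.2 and 24.7 FPKM in *Dhps* flox, with a log2 fold change of 0.33 (standard error 0.07, unadjusted p = 0.00405, adjusted p = 0.488 from limma). B and T lymphocytes, which the sorting gate should remove, also express *Ltb*, and the B and T cell marker sums were higher in the same 2 libraries. Their part in its level was not tested. *Tnfrsf1a*, the widely expressed TNF receptor, was at 81.1 and 78.2 FPKM against 69.4 and 77.0 FPKM (log2 fold change 0.12, adjusted p = 0.786), and *Tnfrsf1b* overlapped, at 28.5 to 32.6 FPKM (log2 fold change -0.01). The list median was 0.05, with 0.03 without *Dhps* cko replicate 1, 0.10 without *Dhps* cko replicate 2 and 0.10 without *Dhps* flox replicate 2.

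By the distance between centered log2 levels over the 4 libraries, among 10628 genes averaging at least 1 FPKM, the genes most like *Tnf* were *Map4k1* (root mean square distance 0.0125), *Polr2i* (0.0229) and *Kctd21* (0.0247). *Map4k1* was at 4.67 and 4.54 FPKM in *Dhps* cko and 3.17 and 3.34 FPKM in *Dhps* flox. Those most like *Il1b* were *Gins3* (0.0104), *F3* (0.0135) and *Ppp1r2* (0.0153), and *Ppp1r2* was at 22.3 and 24.9 FPKM in *Dhps* cko and 27.6 and 23.9 FPKM in *Dhps* flox. With 4 libraries, many profiles lie near any given one.

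The widest difference among the abundant genes was in a chemokine. *Cxcl2* (ENSMUSG00000058427; chr5:90903871-90905938, plus strand) encodes MIP-2, a ligand of CXCR2. It was at 5.67 and 5.30 FPKM in *Dhps* cko and at 14.42 and 9.73 FPKM in *Dhps* flox. The *Dhps* cko libraries were close to each other, the *Dhps* flox libraries were 4.69 FPKM apart, and the groups did not overlap. The *Dhps* cko mean of 5.49 ± 0.262 FPKM (SD, n = 2) was 45.4% of the *Dhps* flox mean of 12.1 ± 3.32 FPKM (SD, n = 2). The log2 fold change was -1.10 (standard error 0.20), with -0.82 without *Dhps* flox replicate 1 and -1.38 without *Dhps* flox replicate 2. Of all genes tested, 2.31% had a log2 fold change of -1 or lower. The ratio of *Tnf* to *Cxcl2* in a library was 4.01 and 4.24 in *Dhps* cko and 1.10 and 1.68 in *Dhps* flox, on the log2 scale the widest difference of the 7 ratios computed. Because *Tnf* was separated upward and *Cxcl2* and *Ccl3* downward, the ratios of *Tnf* to *Cxcl2* and of *Ccl3* to *Tnf* could not overlap.

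*Cxcl3* (ENSMUSG00000029379; chr5:90786103-90789600, plus strand), a close relative, was hardly detected. It was at 0.01 and 0.03 FPKM in *Dhps* cko and 0.03 and 0.09 FPKM in *Dhps* flox, with a tie between genotypes and at most about 9.1 fragments in a library. Its mean of 0.04 FPKM was under the limit for testing, and no direction was detectable at this depth. Of the 50-base words in *Cxcl2* transcripts, 5.8% also occur in *Cxcl3*, so a small share of the reads of *Cxcl2* could have been counted for either gene.

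Among the other CXC chemokines, *Cxcl1* and *Cxcl5*, ligands of the same receptor as *Cxcl2*, were lower in both *Dhps* cko libraries, and neither passed the adjusted threshold. *Cxcl1* (chr5:90891241-90893115) was at 0.30 and 0.33 FPKM in *Dhps* cko and 1.46 and 2.41 FPKM in *Dhps* flox, or about 18.4 and 19.3 fragments against 82.2 and 130.8. Its log2 fold change was -2.25 (standard error 0.29, unadjusted p = 0.000623, adjusted p = 0.379 from limma, and 0.152 to 0.962 over the alternatives). *Cxcl5* (chr5:90759360-90761624) was at 2.41 and 1.89 FPKM against 3.73 and 5.83 FPKM, with a log2 fold change of -1.09 (standard error 0.25, unadjusted p = 0.00724, adjusted p = 0.515, and 0.326 to 0.962 over the alternatives). *Ppbp*, which encodes CXCL7, another ligand of this receptor, and is named here with its values known, overlapped at 0.97 and 0.43 FPKM in *Dhps* cko and 0.13 and 0.85 FPKM in *Dhps* flox (log2 fold change 0.69). *Cxcl1* and *Cxcl5* were the 2 of 9 other CXC chemokines tested that were lower at an unadjusted p under 0.05, as were 2.28% of all genes tested. The list as a whole had 6 fold changes above 0 and a median of 0.21. It was -1.09 when a mean of 1 FPKM was required, which left 3 genes, *Cxcl1*, *Cxcl5* and *Cxcl12*. *Cxcl9* and *Cxcl10*, named after their values were seen, are interferon-induced ligands of CXCR3 and bind another receptor. *Cxcl9* was at 0.20 and 0.16 FPKM in *Dhps* cko and 0.07 FPKM in both *Dhps* flox libraries (log2 fold change 0.72, adjusted p = 0.78), and *Cxcl10* at 0.41 and 0.36 FPKM against 0.26 and 0.23 FPKM (log2 fold change 0.49, adjusted p = 0.798). The receptor *Cxcr2* was abundant and overlapped between genotypes, at 170 and 181 FPKM in *Dhps* cko and 176 and 160 FPKM in *Dhps* flox (log2 fold change 0.07, adjusted p = 0.877).

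These chemokine genes lie in a cluster on chromosome 5, and their upstream sequences are shown for the letters they share. The 150 bases before the transcription start of *Cxcl2* (chr5:90903749-90903898), *Cxcl3* (chr5:90785951-90786100), *Cxcl1* (chr5:90891095-90891244) and *Tnf* (chr17:35202008-35202157, minus strand) are printed 5′ to 3′ from RefSeq, build GRCm38.p6. The starts are those of RefSeq and differ from the GENCODE gene limits given with each gene, which begin 28 bases earlier for *Cxcl2*, 4 bases earlier for *Cxcl1* and 2 bases later for *Cxcl3*, so the last bases printed for *Cxcl2* and *Cxcl1* lie inside the GENCODE gene. Capitals mark matches to the κB motif and to TATAAA, both searched on both strands. The κB run is the union of 2 matches that overlap on opposite strands and are offset by 1 base.
Cxcl2: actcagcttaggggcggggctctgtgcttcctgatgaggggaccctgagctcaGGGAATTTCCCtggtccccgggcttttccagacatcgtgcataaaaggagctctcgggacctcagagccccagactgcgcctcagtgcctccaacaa
Cxcl3: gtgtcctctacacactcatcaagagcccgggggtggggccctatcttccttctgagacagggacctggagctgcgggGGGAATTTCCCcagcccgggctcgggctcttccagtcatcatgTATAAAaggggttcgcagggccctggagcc
Cxcl1: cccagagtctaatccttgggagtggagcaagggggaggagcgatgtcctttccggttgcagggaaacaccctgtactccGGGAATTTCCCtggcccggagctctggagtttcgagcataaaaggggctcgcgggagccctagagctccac
Tnf: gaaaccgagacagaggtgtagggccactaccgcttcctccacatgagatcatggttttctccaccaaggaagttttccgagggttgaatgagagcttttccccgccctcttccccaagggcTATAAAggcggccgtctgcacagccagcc
The run GGGAATTTCCC is identical in the 3 chemokine genes, and its first base lies at position -97 in *Cxcl2*, -73 in *Cxcl3* and -71 in *Cxcl1*, counted from the RefSeq start, and at -69, -75 and -67 counted from the GENCODE start. The window searched ran from 250 bases before to 50 bases after the start. A κB match was present in 2 of the 9 genes with a sequence, *Cxcl2* and *Cxcl3*. It was also in 5 of 19 other chemokine genes, *Ccl1*, *Ccl9*, *Ccl20*, *Cxcl1* and *Cxcl10*, and in 8.46% of all 32851 windows. Of these 5, *Cxcl1* was lower and *Cxcl10* higher in both *Dhps* cko libraries, and *Ccl9* overlapped. *Ccl1* and *Ccl20* were not among the genes tested. The part of the motif in the levels was not tested. TATAAA was in 5 of the 9 (*Cxcl3*, *Il1a*, *Il1b*, *Il1rn* and *Tnf*) and in 13.6% of all windows, and the AP-1 motif TGANTCA in 2 of the 9 (*Il1a* and *Il1rn*) and in 7.81%. The C/EBP motif TTGCNNAA and the CArG box were in 0 of the 9 windows and in 10.8% and 1.63% of all. A match of letters is not a bound site, and a missing match says only that these letters are not in the window.

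The CC chemokines of the 10 differed in level by orders of magnitude. *Ccl6* (ENSMUSG00000018927; chr11:83587882-83593087, minus strand), a myeloid chemokine of mice that binds CCR1, was the most abundant of all 10 genes, with rank 484 of 28585. It was at 66.2 and 75.5 FPKM in *Dhps* cko and 69.0 and 57.8 FPKM in *Dhps* flox, and the groups overlapped. The log2 fold change was 0.16 (standard error 0.11), with 0.04 without *Dhps* flox replicate 2 and 0.07 without *Dhps* cko replicate 2. It was 0.29 without *Dhps* flox replicate 1 and 0.26 without *Dhps* cko replicate 1, and with either of these left out the genotypes did not overlap. *Ccl3* (ENSMUSG00000000982; chr11:83647844-83649355, minus strand) encodes MIP-1α. It was at 2.11 and 2.46 FPKM in *Dhps* cko and 3.42 and 2.69 FPKM in *Dhps* flox, lower without overlap, although 0.23 FPKM separated the nearest libraries. Its log2 fold change was -0.40 (standard error 0.17), and -0.23 without *Dhps* flox replicate 1. *Ccl4* (ENSMUSG00000018930; chr11:83662584-83664683, plus strand), which encodes MIP-1β, was listed at 0 in *Dhps* cko replicate 1 and was at 0.26 FPKM in *Dhps* cko replicate 2, 0.50 FPKM in *Dhps* flox replicate 1 and 0.18 FPKM in *Dhps* flox replicate 2. At most about 9.9 fragments lay behind a value, and the groups overlapped. Its fitted log2 fold change ran from -2.58 to -0.19 over the alternatives and is therefore no measure of size.

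Of 7 other CC chemokines tested, 2 were lower at an unadjusted p under 0.05 (2.28% of all genes tested) and 0 passed the adjusted threshold. *Ccl2*, the ligand of CCR2 that draws monocytes, was at 1.56 and 1.42 FPKM in *Dhps* cko and 2.72 and 3.88 FPKM in *Dhps* flox. Its log2 fold change was -1.08 (standard error 0.20, unadjusted p = 0.00329, adjusted p = 0.488 from limma, and 0.253 to 0.962 over the alternatives). *Ccl7* is a neighbor of *Ccl2* and was named with its values known. It was at 0.37 and 0.36 FPKM against 1.14 and 0.79 FPKM (log2 fold change -1.18, unadjusted p = 0.00745, adjusted p = 0.515). *Ccl9*, a relative of *Ccl6*, overlapped, at 1.63 to 2.19 FPKM (log2 fold change -0.08, adjusted p = 0.965). The list median was 0.13, but -0.58 when a mean of 1 FPKM was required, which left the 2 genes *Ccl2* and *Ccl9*, -0.20 without *Dhps* cko replicate 1 and -0.13 without *Dhps* flox replicate 2. Of the receptors, *Ccr1* had a log2 fold change of 0.01 at 56.2 to 61.4 FPKM. *Ccr2*, which is also a monocyte marker, was at 2.95 and 2.73 FPKM in *Dhps* cko and 2.06 and 2.00 FPKM in *Dhps* flox (log2 fold change 0.46, unadjusted p = 0.0133, adjusted p = 0.568).

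**Figure D3:**
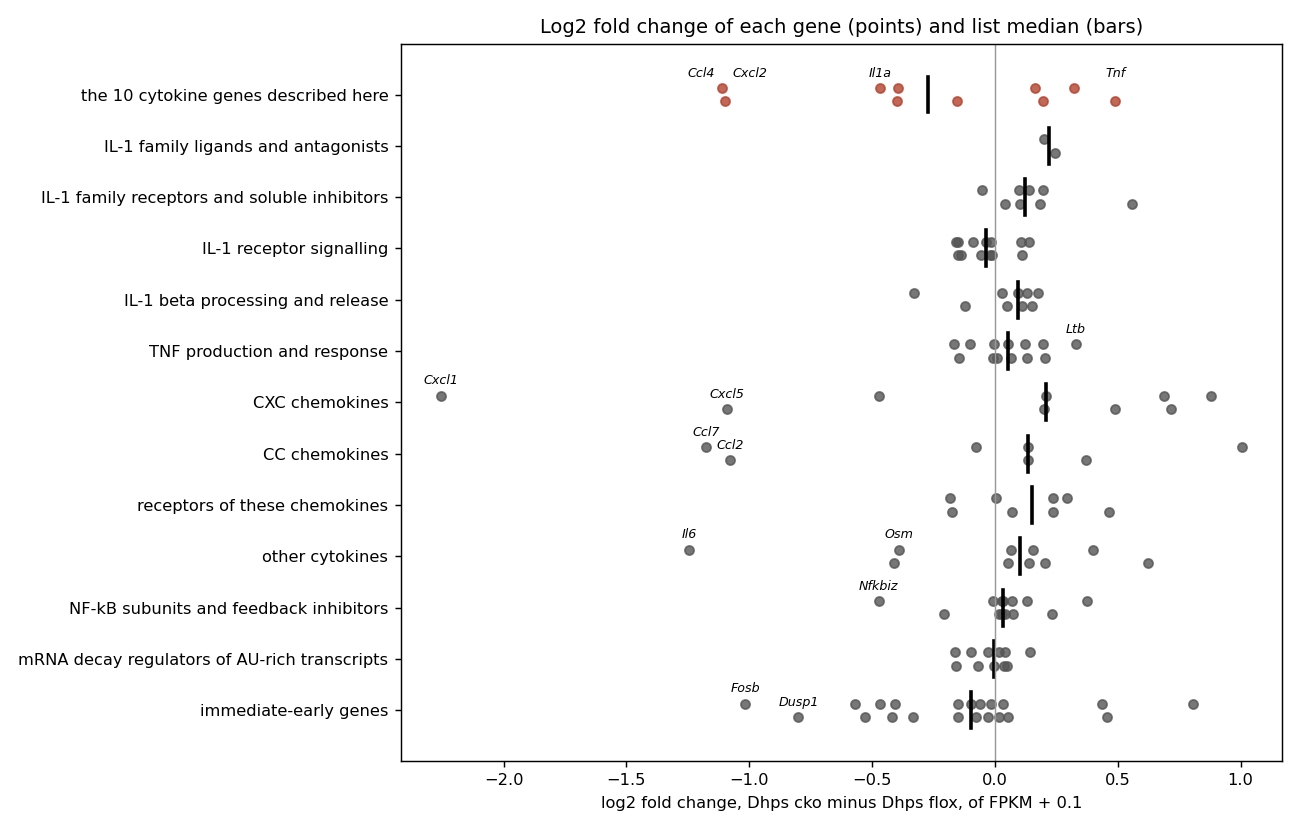
Log2 fold change of *Dhps* cko against *Dhps* flox on FPKM + 0.1 (horizontal axis) for the 10 cytokine genes (red) and for genes averaging at least 0.1 FPKM in each pathway list without them (gray), with bars at the list medians. *Cxcl1*, *Cxcl5*, *Ccl2* and *Ccl7* lie at -1.08 or below while the medians of their lists lie at 0.21 and 0.13.

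Genes that respond within minutes to handling or stimulation differed in both directions at an unadjusted p. Of 21 immediate-early genes tested, 15 had a fold change below 0, 7 were lower and 3 higher at an unadjusted p under 0.05 (2.28% and 4.72% of all genes tested), and 0 passed the adjusted threshold. *Fos*, a subunit of AP-1, was at 103 and 97.6 FPKM in *Dhps* cko and 156 and 134 FPKM in *Dhps* flox (log2 fold change -0.53, unadjusted p = 0.00188, adjusted p = 0.454 from limma). *Fosb* was at 6.49 and 6.51 FPKM against 15.2 and 11.6 FPKM (log2 fold change -1.02, adjusted p = 0.385), and *Dusp1*, a phosphatase that limits MAP kinase signals, at 42.5 and 43.0 FPKM against 84.3 and 65.9 FPKM (log2 fold change -0.80, adjusted p = 0.407). Of the 3 higher genes, all named with their values known, *Ier3* was at 16.0 and 15.1 FPKM against 10.5 and 12.5 FPKM (log2 fold change 0.44, unadjusted p = 0.00824), and *Egr3* and *Myc* had log2 fold changes of 0.81 and 0.46. The list median was -0.10, with -0.05 without *Dhps* flox replicate 1 and -0.16 without *Dhps* cko replicate 1. The summed level of the list was 641 and 639 FPKM in *Dhps* cko and 796 and 723 FPKM in *Dhps* flox. Not every gene of the list differed, and *Ier2* was at 112 to 113 FPKM in the 4 libraries. *Cxcl2*, *Il1b*, *Ccl3*, *Ccl4*, *Ccl7*, *Fos*, *Fosb* and *Dusp1* were highest in *Dhps* flox replicate 1, whereas *Cxcl1*, *Cxcl3*, *Cxcl5*, *Ccl2* and *Il1a* were highest in *Dhps* flox replicate 2. The part of the early response in the chemokine levels was not tested.

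**Figure D4:**
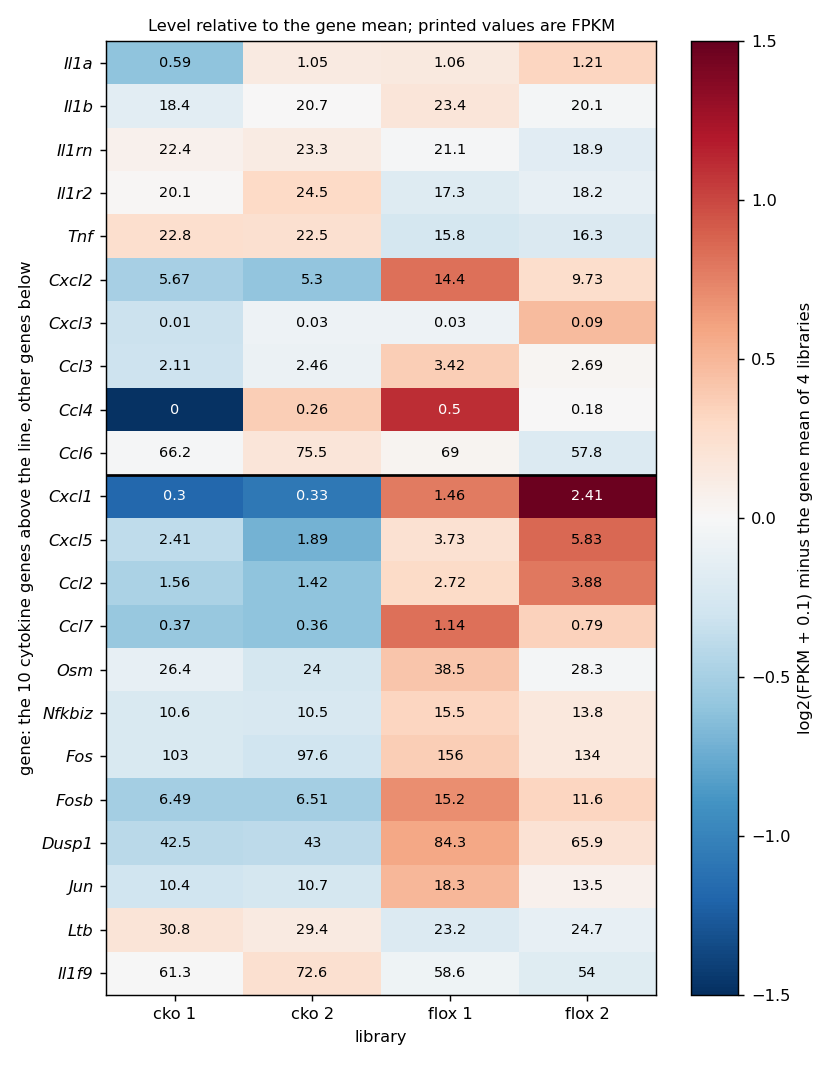
Level of each gene in each library relative to its mean over the 4 libraries, as log2(FPKM + 0.1) (color), with FPKM printed in the cells. The 10 cytokine genes stand above the line, where *Cxcl2* and *Tnf* run in opposite directions, and other chemokines, early response genes, *Osm*, *Nfkbiz*, *Ltb* and *Il1f9* stand below it.

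Among regulators of these transcripts, none passed the adjusted threshold, and 1 lower and 1 higher gene had an unadjusted p under 0.05, beside 2.28% and 4.72% of all genes tested. *Nfkbiz*, which encodes the nuclear protein IκBζ, was the 1 lower gene of 13 NF-κB genes tested, at 10.6 and 10.5 FPKM in *Dhps* cko and 15.5 and 13.8 FPKM in *Dhps* flox (log2 fold change -0.47, standard error 0.08, unadjusted p = 0.00233, adjusted p = 0.475 from limma). *Bcl3*, another nuclear IκB protein and the 1 higher gene, had a log2 fold change of 0.38 (unadjusted p = 0.0168, adjusted p = 0.58), while *Nfkbia* was at 56.2 to 60.6 FPKM and *Rela* at 31.5 to 35.1 FPKM with overlap. None of 11 genes for decay factors of AU-rich transcripts reached an unadjusted p under 0.05 in limma, and *Zfp36*, which encodes tristetraprolin, was at 120 to 127 FPKM with overlap. Among 10 other cytokine genes tested, 0 passed the adjusted threshold. *Osm*, which encodes oncostatin M, was at 26.4 and 24.0 FPKM in *Dhps* cko and 38.5 and 28.3 FPKM in *Dhps* flox (log2 fold change -0.39, unadjusted p = 0.0552, adjusted p = 0.719). Its fold change was -0.17 without *Dhps* flox replicate 1 and -0.61 without *Dhps* flox replicate 2, and *Tgfb1* overlapped at 22.2 to 25.7 FPKM. *Il6*, named with its values known, was listed at 0 and at 0.06 FPKM in *Dhps* cko and was at 0.21 and 0.19 FPKM in *Dhps* flox. Over all pathway lists, 124 genes were tested, 13 were lower and 6 higher at an unadjusted p under 0.05, 0 passed the adjusted threshold, and the median log2 fold change was 0.03. Of all genes tested, 2.28% were lower and 4.72% higher at that p. The number higher in these lists was 2 without *Dhps* cko replicate 1, 2 without *Dhps* cko replicate 2 and 10 without *Dhps* flox replicate 2.

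The 3′ untranslated regions set the 10 genes apart from one another in a property read from sequence and not from these libraries. The pentamer ATTTA, the core of AU-rich elements, occurred 11 times in *Cxcl2*, 8 times in *Tnf*, 5 times each in *Ccl3* and *Cxcl3* and 4 times each in *Il1b* and *Ccl6*. It occurred 3 times in *Il1a*, 2 times in *Ccl4* and 0 times in *Il1rn* and *Il1r2*. The longer element TTATTTATT occurred 5 times in *Tnf*, 4 times in *Cxcl2* and 1 time in *Cxcl3*, and in 7.66% of 21022 genes at least once. Of these genes, 21.6% held 5 or more pentamers, as did 4 of the 10, and the median was 1. Lengths differed, with 1494 bases for *Cxcl2*, 764 for *Tnf*, 409 for *Ccl3*, 1864 for *Il1rn* and 24 for *Il1r2*, too short to hold more than a few. Per kilobase, *Ccl3* held 12.2 pentamers, *Tnf* 10.5, *Il1b* 8.71, *Cxcl3* 7.75 and *Cxcl2* 7.36, beside a median of 1.35 over regions of at least 100 bases. The part of these elements in the levels was not tested.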

How the data were processed

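Bulk RNA sequencing of splenic PMN-MDSCs gave 1 table per library, with 2 *Dhps* cko and 2 *Dhps* flox libraries grouped by their genotype labels. The deposited FPKM were calculated by the authors with StringTie and ballgown from reads trimmed with Cutadapt and aligned with HISAT2. The submitters' processing notes name build mm10, while the annotation release and the use of strand are not given in the sources used here. Of the identifiers, 28511 were found in GENCODE M21 (GRCm38), from which positions, overlaps and 3′ untranslated regions were taken, and 74 were not. Upstream sequences came from RefSeq (GRCm38.p6), with a window for 9 of the 10 genes. FPKM hold no counts, and 36.9% to 40.3% of low values lay within 0.15 of a whole read step. By chance it would be 30% for a depth fixed in advance, whereas the depth here was chosen for the best fit. Whole reads were therefore not recovered and no count test was run.

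The comparison of genotypes used limma 3.58.1 (R 4.3.3, lmFit and trended eBayes) on log2(FPKM + 0.1) over the genes averaging at least 0.1 FPKM, with Benjamini-Hochberg adjustment over all of them and a threshold of 0.05. The fit was checked on simulated data. An exact permutation test of 2 against 2 cannot go below p = 0.33. The 10 genes and all gene lists (pathways, immediate-early genes, cell type markers, sex-linked genes) were chosen with earlier results of these data known. The text names the 10 genes, *Dhps*, from each pathway list the 2 most abundant and the 2 most changed genes averaging at least 1 FPKM, the top gene of each marker list, the 5 genes nearest to *Il1b* and to *Tnf* in pattern, and others said to be named with their values known. Any of these may be left out. Alternatives were pseudocounts of 0.01 and 1, no filter, a mean of 1 FPKM, TPM, size factors, quantile normalization, no trend, a replicate block and each library left out. Replicate numbers were not used to pair libraries, since the deviations of equally numbered libraries were uncorrelated (r = -0.01 across genes). Python 3.11.15, pandas 2.3.3 and matplotlib 3.10.9 were used for the other steps.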

Additional observations from a re-analysis of the deposited data

How the results depend on the processing

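None of the 10 genes changed the sign of its log2 fold change under the 13 alternatives, and *Cxcl2*, *Ccl3*, *Il1a*, *Tnf*, *Il1r2* and *Il1rn* kept their separation with TPM, size factors and quantile normalization, the 3 alternatives that could have ended it. The number of these genes fully lower in *Dhps* cko, 3 with all libraries, was 5 with TPM, which added *Cxcl3* and *Il1b*, and 3 to 6 with a library left out. Their median log2 fold change of -0.27 ran from -0.372 to -0.083 with a library left out, was -0.101 with a pseudocount of 1, and was 0.01 without *Cxcl3* and *Ccl4*, the 2 lowest genes. Over all genes, the 1 gene with an adjusted p under 0.05 became 0 with a pseudocount of 0.01, 0 without a filter, 4 with a mean of at least 1 FPKM, 2 with quantile normalization and 0 to 0 with a library left out. With the replicate number as a block, 0 genes had an adjusted p under 0.05, and 363 lower and 719 higher genes had an unadjusted one; the numbers in the labels do not say that libraries were paired. At an unadjusted p under 0.05, the number of lower genes was 222 with a mean of at least 1 FPKM, from fewer genes tested, and 277 to 655 with a library left out, while the number of higher genes was 404 to 954. In the pathway lists the number higher ran from 2 to 10 with a library left out, and 0 of their genes had an adjusted p under 0.05 under every alternative. Where no value is given beside a change, the cause was not tested. With 2 libraries per genotype and no counts, genes near 0.1 FPKM such as *Ccl4* and *Cxcl3* rest on a few fragments, and small differences such as that of *Il1b* cannot be resolved.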

Other observations

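The remaining marker lists describe what else the libraries held. The 6 eosinophil markers summed to 12.62 and 10.95 FPKM in *Dhps* cko and 8.96 and 8.95 FPKM in *Dhps* flox, and their log2 fold changes had a median of 0.34, whereas the 5 basophil and mast cell markers listed summed to 43.9 and 47.9 FPKM against 35.5 and 41.2 FPKM, with a median of 0.40. The 7 dendritic cell markers summed to 5.68 and 5.13 FPKM against 3.14 and 4.32 FPKM, and the 5 of them tested had a median of 0.57. The 8 erythroid markers overlapped in sum, at 466 and 556 FPKM against 383 and 567 FPKM (median 0.09), as did the 6 platelet and megakaryocyte markers, at 1.66 to 4.43 FPKM (median -0.09). NK cell markers summed to 0.79 to 1.36 FPKM, with a median of -0.21 over 2 genes tested. No gene of these lists had an adjusted p under 0.05 in limma, and 1 (*Prg2*, named with its values known, an eosinophil granule gene at 3.95 and 1.35 FPKM against 0.98 and 0.50 FPKM) had an unadjusted one. *Csf3*, which encodes the granulocyte growth factor G-CSF and was named with its values known, was under the limit for testing. It was listed at 0 and at 0.05 FPKM in *Dhps* cko and was at 0.12 and 0.18 FPKM in *Dhps* flox.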
